A study of Mus musculus with 32 samples.

Results

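The Skint family was followed in mouse epidermis as 10 genes, Skint1 to Skint10, chosen by symbol among the 55401 genes of the count tables. All 10 members passed the filter on low counts, which asked for at least 1 cpm (the count of a gene scaled to a common library size) in any mouse and left 15546 genes. RNA was sequenced from the epidermis of 32 hairless mice of the B6.129-SKH1-Hr hr background, which the labels give as SKH-1/SV129/BL6/J, aged 10 to 14 weeks, with 1 library per mouse. The mice formed 8 groups of 4 by sex, by genotype (WT, or KO for the labels' Ppard-/-) and by treatment (controls without UV, or mice taken 24 h after a single exposure to 120 mJ/cm2). How the Ppard allele was disrupted is not given in the sources used here. The comparisons below asked whether UV changed the level of each Skint gene, and whether genotype or sex changed that level or that response.

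Skint genes encode membrane proteins with immunoglobulin-like domains, related to the butyrophilins, and are expressed mainly in keratinocytes and in thymic epithelium. Skint1, the founding member, is needed in the thymus for the selection of the γδ T cells that settle in mouse epidermis as dendritic epidermal T cells. Skint3 and Skint9 have been tied to signalling from keratinocytes to these T cells during wound repair. The roles of the other members are less well defined.

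The 10 genes lie next to each other on chromosome 4. On GRCm38, the build named in the submitters' processing notes, GENCODE M21 places them in the order Skint8 (111919392 to 111950358, plus strand), Skint7 (111972923 to 111988223, plus), Skint1 (112006269 to 112029538, plus), Skint4 (112072016 to 112168076, plus), Skint3 (112232245 to 112300468, plus), Skint9 (112385969 to 112433985, minus), Skint2 (112557194 to 112652248, plus), Skint10 (112711147 to 112774866, minus), Skint6 (112804616 to 113286973, minus) and Skint5 (113477891 to 113999503, minus). Skint11, which is no member here, follows at 114163384 to 114245028. As paralogs can split reads, every stretch of 100 bases of their annotated transcripts was compared. Skint7 and Skint8 shared 138 such stretches, which was 3.49% of those of Skint7 and 2.95% of those of Skint8, and the other 8 members shared 0 with any other gene. Exons overlapped those of another gene in Skint6 alone, over 63 bases. Reads aligned at several places were left out of the counts by the authors' counting program, so reads lying wholly in a shared stretch are missing from the counts of Skint7 and Skint8.

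The 250 bases before the RefSeq start sites (GRCm38.p6) are shown for 6 members, all taken on the gene's own strand and written 5′ to 3′. Capitals mark TATAAA on either strand, which reads TTTATA on the other one. Skint7 and Skint8 are shown because the former fell much further after UV than its neighbour, Skint3 and Skint9 because they are neighbours with unlike changes, and Skint5 and Skint6 because their windows were the most alike.
Skint7, chr4:111972677-111972926, plus strand: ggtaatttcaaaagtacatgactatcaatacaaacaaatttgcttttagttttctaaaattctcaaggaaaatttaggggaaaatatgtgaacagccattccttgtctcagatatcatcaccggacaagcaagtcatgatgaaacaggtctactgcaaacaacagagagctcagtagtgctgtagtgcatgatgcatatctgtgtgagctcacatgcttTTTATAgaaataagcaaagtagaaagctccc
Skint8, chr4:111919305-111919554, plus strand: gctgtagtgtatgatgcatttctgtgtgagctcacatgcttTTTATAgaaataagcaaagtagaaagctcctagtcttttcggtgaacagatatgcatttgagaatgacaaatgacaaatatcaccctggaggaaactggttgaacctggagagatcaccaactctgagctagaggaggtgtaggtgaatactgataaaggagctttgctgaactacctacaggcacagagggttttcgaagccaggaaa
Skint3, chr4:112231995-112232244, plus strand: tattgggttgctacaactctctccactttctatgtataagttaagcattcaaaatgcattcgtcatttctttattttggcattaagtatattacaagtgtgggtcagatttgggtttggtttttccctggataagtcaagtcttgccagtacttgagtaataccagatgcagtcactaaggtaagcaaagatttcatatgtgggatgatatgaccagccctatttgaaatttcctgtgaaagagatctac
Skint9, chr4:112433986-112434235, minus strand: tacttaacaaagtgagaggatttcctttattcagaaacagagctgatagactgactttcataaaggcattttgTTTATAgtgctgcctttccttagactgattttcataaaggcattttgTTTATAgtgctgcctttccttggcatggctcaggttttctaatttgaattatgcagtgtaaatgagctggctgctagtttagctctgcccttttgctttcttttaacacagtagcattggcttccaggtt
Skint5, chr4:113999504-113999753, minus strand: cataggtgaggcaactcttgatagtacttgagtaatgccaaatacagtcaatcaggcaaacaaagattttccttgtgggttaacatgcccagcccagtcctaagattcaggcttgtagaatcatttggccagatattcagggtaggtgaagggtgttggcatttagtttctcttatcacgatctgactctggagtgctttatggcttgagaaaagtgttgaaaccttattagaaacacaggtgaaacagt
Skint6, chr4:113286974-113287223, minus strand: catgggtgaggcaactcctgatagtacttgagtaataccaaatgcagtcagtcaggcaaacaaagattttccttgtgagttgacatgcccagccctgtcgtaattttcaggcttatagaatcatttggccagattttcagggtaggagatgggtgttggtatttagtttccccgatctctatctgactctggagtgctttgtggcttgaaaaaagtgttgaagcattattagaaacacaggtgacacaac
The windows of Skint5 and Skint6 were 88.8% identical in a gapped alignment, while the next pair, Skint10 and Skint11, came to 70%. Skint7 and Skint8 shared an unbroken run of 51 bases, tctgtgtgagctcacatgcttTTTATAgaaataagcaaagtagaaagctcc, which holds the capitals of both windows, and it lay near the start site in Skint7 and further upstream in Skint8. These places are relative to the RefSeq start sites. GENCODE M21 starts Skint8 at 111919392, inside its window and shortly after the run, so that contrast depends on the start site used. RefSeq gave 12 windows for the 10 members and Skint11, as Skint4 has 2 start sites. TATAAA was found on either strand in 7 of the 12 windows and in 12.4% of 32851 windows of the same length over the genome. CCAAT stood in 4 of the 12 and in 33.8% of all windows. The AP-1 motif TGANTCA, the site of the Fos and Jun factors, stood in 1 of the 12, that of Skint11, and in 6.75% of all windows.

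Between 22919428 and 40653581 reads per mouse fell on genes (median 27600228). The labels give RNA quality numbers of 6.4 to 8.4, while the paper states a higher range for the samples it reports. Ppard, the targeted gene, had 87.3 to 105 cpm in WT controls and 70.3 to 88.9 cpm in KO controls, and 252 to 326 cpm in WT and 175 to 239 cpm in KO mice after UV. The KO mice therefore kept reads on Ppard, lower than WT by 0.26 on the log2 scale without UV (SE 0.07, adjusted p = 0.156) and by 0.42 after UV (SE 0.07, adjusted p = 0.00114), and a count over the whole gene cannot check a deletion of part of it. Keratinocyte markers were high throughout, with a summed level of 10 suprabasal markers of 11400 to 113000 cpm. The 6 fibroblast markers summed to 1.73 to 92.2 cpm in 31 mice and to 1980 cpm in the KO UV mouse 54F, and 4 skeletal muscle markers ranged from 3.5 to 2190 cpm between mice.

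Skint3, Skint4 and Skint9, the 3 members in the middle of the cluster, had 0 reads in the same 10 mice. These were the WT controls 63F, 56M and 69M, the WT UV mice 77F and 38M, the KO controls 44F, 62F and 44M, and the KO UV mice 54F and 66F, numbered as in the labels. They comprised 5 WT and 5 KO mice, 6 controls and 4 UV-exposed mice, and 4 males and 6 females. The split was uneven over the groups, with 0 of the 4 KO UV males and 2 of the 4 KO UV females. The other 22 mice had 1629 to 12146 reads on Skint3, 41 to 3335 on Skint4 and 76 to 8486 on Skint9. A count of 0 allows up to 3 reads, or 0.0869 to 0.119 cpm in these libraries, counting error only. No value lay between, as the plot of levels by mouse shows.

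**Figure D1:**
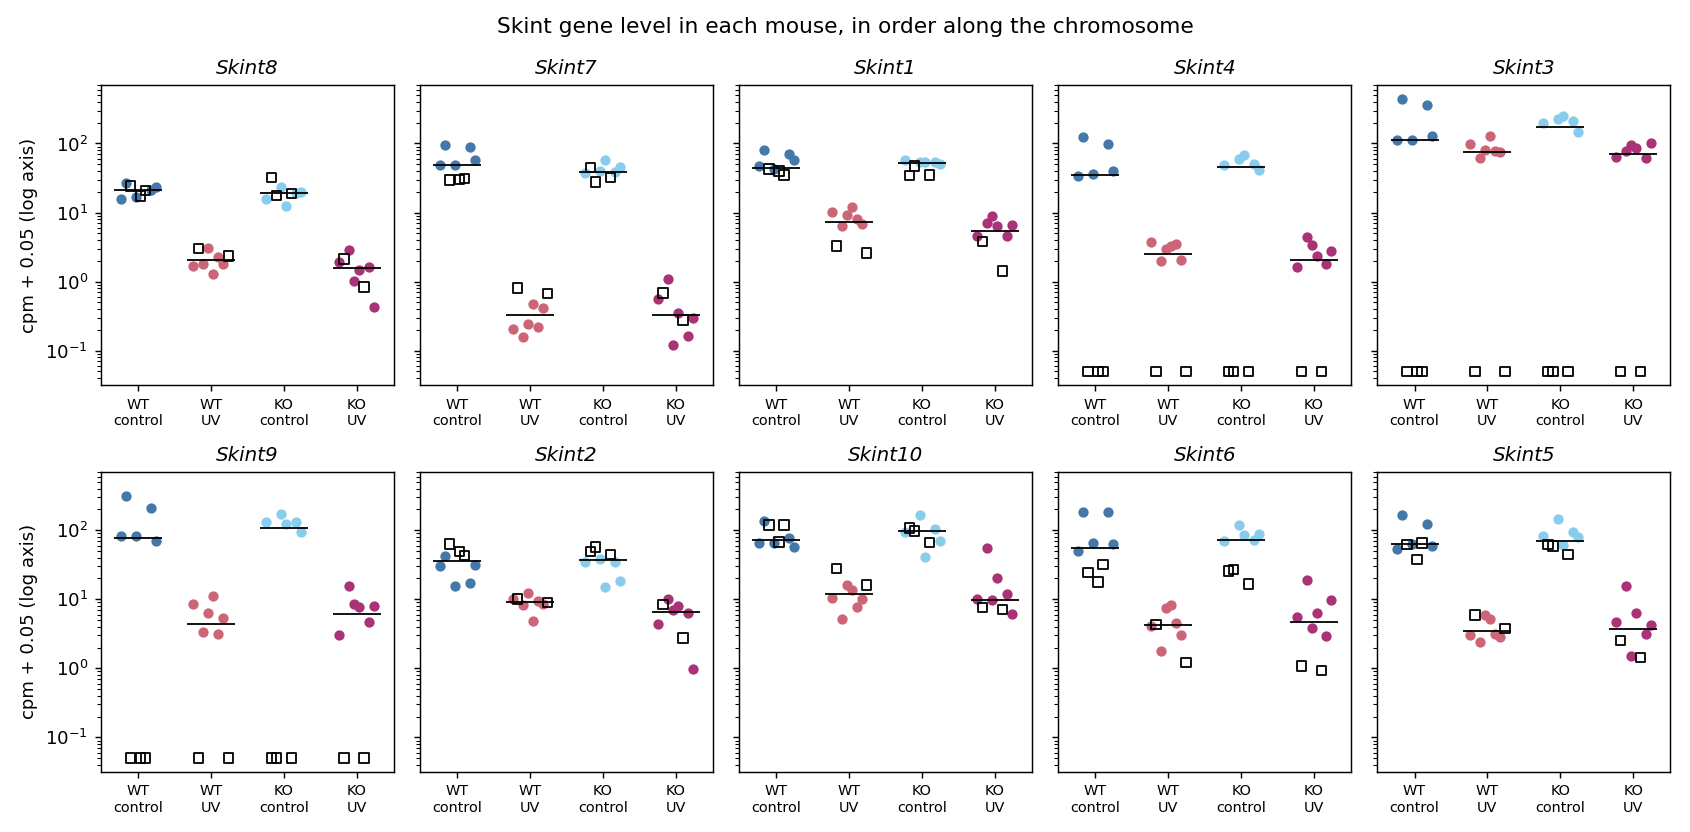
Level of each Skint gene in each of the 32 mice (cpm plus 0.05, logarithmic axis) by genotype and treatment, with genes in chromosome order. Filled circles are the 22 mice with Skint3 reads, open squares the 10 mice without, and lines the medians of 8 mice; the squares of Skint4, Skint3 and Skint9 lie at 0 cpm in all 4 conditions, and 9 of the 10 genes were called lower after UV in both genotypes.

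Over all 55401 genes, these 3 members were the only ones with at most 3 reads in each of the 10 mice and at least 10 in each of the other 22, and 0 genes showed the reverse. This search was made after the values had been seen. Both pseudogenes between Skint9 and Skint2, Gm12819 and Gm12821, also had 0 reads in the 10 mice, against 206 and 136 reads in total in the other 22. Further towards the start of chromosome 4, at 108942843 to 108972077 and 108933573 to 108933808, the genes 8030443G20Rik and Gm12736 had 0 reads in the same 6 controls and 19 to 92 and 44 to 165 reads in each of the other 10 controls. The labels name several parental strains and do not say which of them each mouse carries here. Why the reads were absent was not tested. The UV and genotype results on Skint3, Skint4 and Skint9 are therefore given over all 32 mice and also over the 22 mice with reads, the second chosen after seeing the data. The 22 mice were picked by the counts of these same genes, so calls in them describe mice with reads and are no independent test.

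Other members were read in all 32 mice, and several followed the same division among the controls. The 6 controls without Skint3 reads had the 6 lowest levels of Skint6, at 16.5 to 31.8 cpm, where the other 10 controls had 49.6 to 184 cpm. They had the 6 highest levels of Skint2, at 42.7 to 63.4 cpm, against 15.1 to 41.8 cpm. Of the 6 lowest controls, 5 were of these mice for Skint1 and 5 for Skint7, 3 for Skint5, 2 for Skint8 and 2 for Skint10. Of the 6 highest, 2 were of these mice for Skint8 and 3 for Skint10, so these genes did not follow the division. After UV, the 4 mice without Skint3 reads were the 4 lowest for Skint1, at 1.38 to 3.77 cpm against 4.47 to 11.8 cpm, and 3 of the 4 lowest for Skint6. The order was not kept for Skint7, where they were 3 of the 4 highest after UV, nor for Skint2, where 1 was among the 4 lowest and 1 among the 4 highest. For Skint5, Skint8 and Skint10, 2, 1 and 2 were among the 4 lowest after UV and 1, 2 and 2 among the 4 highest. These are descriptions of single mice without a test, since the mice were singled out by their own Skint counts.

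**Figure D2:**
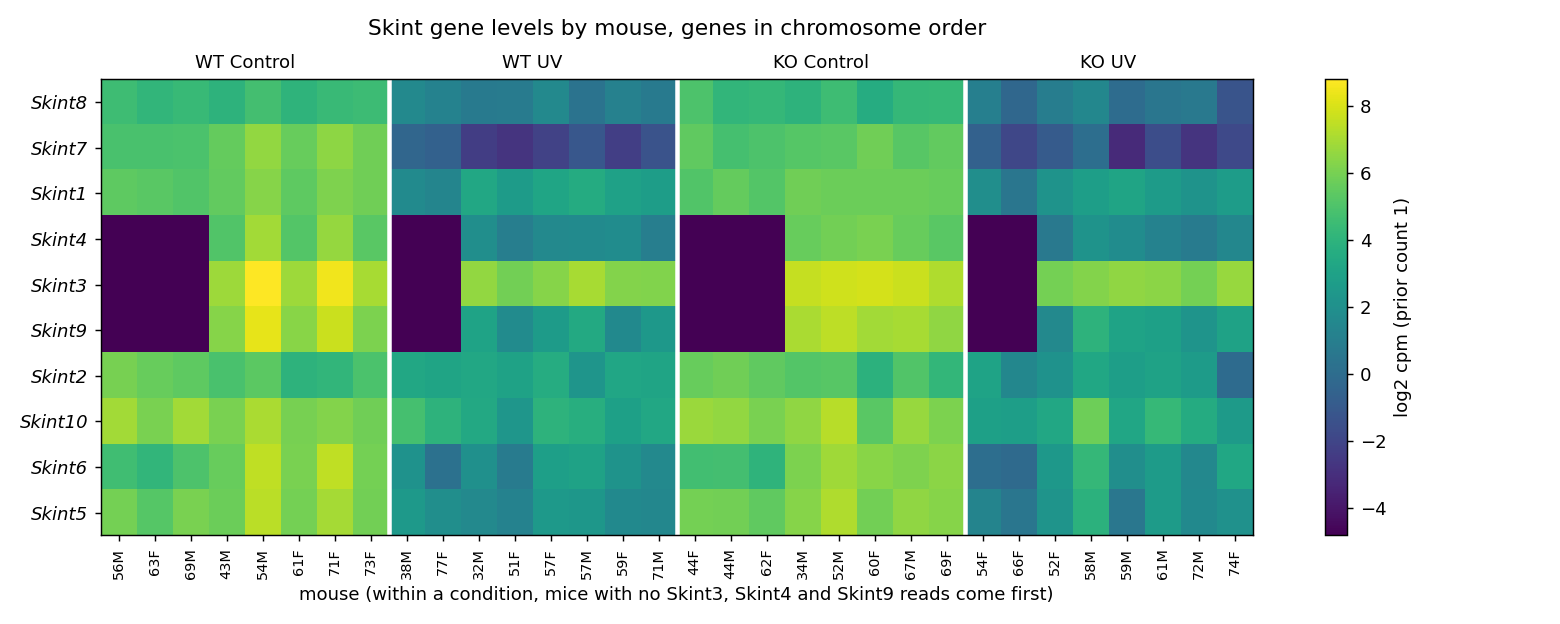
Skint gene levels (colour, log2 cpm with a prior count of 1) in the 32 mice, with genes in rows in chromosome order and mice in columns by condition. The dark block of Skint4, Skint3 and Skint9 marks the 10 mice with 0 reads, which stand first in each condition, and Skint7 is dark in all 16 UV-exposed mice.

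The Skint family as a whole was lower 24 h after UV in both genotypes. Its 10 genes summed to 260 to 1610 cpm in WT controls (median 543, n = 8) and to 35.4 to 190 cpm in WT UV mice (median 117, n = 8). In KO mice the sums were 257 to 1040 cpm without UV (median 707) and 14.4 to 210 cpm after it (median 119), so that UV-exposed and control mice did not overlap in either genotype. By edgeR's quasi-likelihood test over all 32 mice, with p-values adjusted by the Benjamini-Hochberg method over 15546 genes and a call at an adjusted p under 0.05, 9 of the 10 members were called lower after UV in WT mice, where 36.5% of all genes were called lower. The same 9 were called lower in KO mice, against 33.5% of all genes. The member left out was Skint3 in both. With limma-trend on log2 cpm, the tool of the study, Skint4 and Skint9 also missed the call in both genotypes, while the other members called by edgeR stayed called. Skint3 then had log2 changes of 0.66 in WT and 0.55 in KO mice. The median log2 change of the members was -3.74 in WT and -3.59 in KO, beside -0.01 and 0.09 over all genes tested. In bulk epidermis, fewer cells of a type and less RNA per cell cannot be told apart.

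Without the 10 mice, 10 of 10 members were called lower in WT (33.6% of 14966 genes) and 10 of 10 in KO mice (32.5%). As these mice were left out by their own Skint counts, these calls are a description of the mice with reads. Every UV-exposed mouse lay below every control for 7 members in WT (22.1% of all genes) and for 5 in KO mice (16.5%). Over the 22 mice this held for 9 members in WT (26.0%) and 9 in KO mice (22.6%), the exceptions being Skint3 in WT and Skint10 in KO mice.

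**Figure D3:**
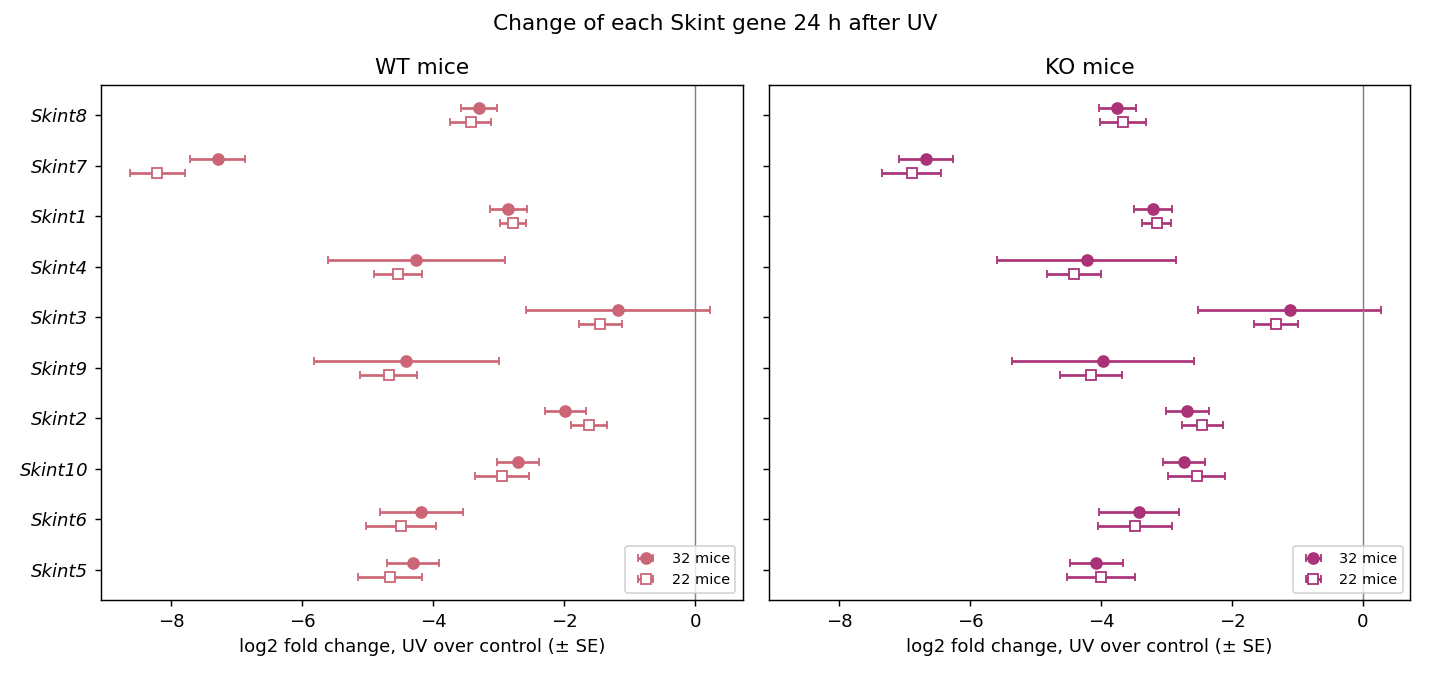
Log2 fold change of each Skint gene, UV-exposed over control mice, with bars of 1 standard error, in WT (left) and KO mice (right), genes in chromosome order. Filled circles are fits of 32 mice and open squares fits of the 22 mice with Skint3 reads; Skint7 lies furthest left at -7.29 and -6.67, and the bars of Skint4, Skint3 and Skint9 shorten in the second fit.

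Skint7 fell furthest of the members. It had 29.7 to 95.7 cpm in WT controls (median 49, n = 8) and 0.109 to 0.764 cpm in WT UV mice (median 0.279, n = 8). KO controls had 27.4 to 57.3 cpm (median 38.9) and KO UV mice 0.0721 to 1.04 cpm (median 0.275). In reads, 755 to 2598 in WT controls compared with 3 to 21 after UV, and 775 to 1438 in KO controls with 2 to 25. Few reads were left in any UV-exposed mouse, so differences among them rest on small counts. The fall was 156-fold in WT (log2 change -7.29, SE 0.42, adjusted p = 1.25e-14) and 102-fold in KO mice (-6.67, SE 0.41, adjusted p = 5.38e-14). It was, over the 22 mice, 296-fold in WT (-8.21, SE 0.42, adjusted p = 3.26e-11) and 118-fold in KO mice (-6.89, SE 0.45, adjusted p = 6.19e-10). A lower log2 change was found for 8 of 15546 genes in WT and 10 in KO mice, and over the 22 mice for 2 and 6 of 14966 genes.

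Skint8, the direct neighbour of Skint7, fell less steeply. It had 15.9 to 26.4 cpm in WT controls (median 20.9) and 1.23 to 3 cpm after UV (median 1.98). In KO mice the levels were 12.3 to 32.1 cpm (median 19) and 0.376 to 2.82 cpm (median 1.51). Controls and UV-exposed mice stood apart in both genotypes. The fall was 9.87-fold in WT (log2 change -3.3, SE 0.27, adjusted p = 1.43e-11) and 13.4-fold in KO mice (-3.75, SE 0.28, adjusted p = 2.18e-12).

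Skint1, on the other side of Skint7, had 35 to 81.5 cpm in WT controls (median 44.6) and 2.55 to 11.8 cpm after UV (median 7.3). KO mice had 34.3 to 57.3 cpm (median 52.1) and 1.38 to 8.91 cpm (median 5.43). The highest UV-exposed mouse stayed below the lowest control in each genotype. Skint1 fell 7.22-fold in WT (log2 change -2.85, SE 0.28, adjusted p = 7.36e-10) and 9.28-fold in KO mice (-3.21, SE 0.29, adjusted p = 1.17e-10).

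Skint3 had the highest level of the family after UV and the smallest change. Among the mice with reads, the 5 WT controls had 111, 112, 128, 364 and 447 cpm and the 6 WT UV mice 60.7 to 130 cpm (median 78.2). The 5 KO controls had 148, 196, 211, 223 and 248 cpm and the 6 KO UV mice 61.8 to 103 cpm (median 82). One WT UV mouse, 57M, lay above 3 of the 5 controls, and the KO mice did not overlap. Over 32 mice the log2 change was -1.18 in WT (SE 1.4, adjusted p = 0.464) and -1.12 in KO mice (SE 1.4, adjusted p = 0.487), neither called. Over the 22 mice it was -1.45 in WT (SE 0.33, adjusted p = 0.000831) and -1.33 in KO mice (SE 0.34, adjusted p = 0.00243), a fall of 2.73-fold and 2.51-fold.

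Skint9, transcribed on the opposite strand from Skint3, had 70.6, 81.5, 82.4, 209 and 313 cpm in the 5 WT controls with reads and 3.11 to 11 cpm in the 6 WT UV mice (median 5.83). The 5 KO controls had 93, 122, 130, 133 and 174 cpm and the 6 KO UV mice 2.95 to 15.7 cpm (median 7.82). All UV-exposed mice lay far below these controls. Its fall was called over 32 mice in WT (log2 change -4.41, SE 1.41, adjusted p = 0.00663) and in KO mice (-3.97, SE 1.39, adjusted p = 0.0126). Over the 22 mice the changes were -4.68 (SE 0.43, adjusted p = 3.89e-08) and -4.15 (SE 0.47, adjusted p = 4.66e-07). limma-trend over 32 mice did not call Skint9, with changes of -1.88 in WT (adjusted p = 0.496) and -1.67 in KO mice (adjusted p = 0.549).

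Skint4, on the other side of Skint3, had 34.1, 36.3, 39.5, 98.9 and 123 cpm in the 5 WT controls with reads and 1.96 to 3.67 cpm after UV (median 3.08). The 5 KO controls had 40.6, 49.2, 49.9, 59.2 and 67.3 cpm and the 6 KO UV mice 1.59 to 4.39 cpm (median 2.51). As for Skint9, no UV-exposed mouse came near a control with reads. Over 32 mice the log2 change was -4.26 in WT (SE 1.35, adjusted p = 0.00623) and -4.22 in KO mice (SE 1.37, adjusted p = 0.0074). Over the 22 mice it was -4.54 (SE 0.37, adjusted p = 8.95e-09) and -4.41 (SE 0.41, adjusted p = 5.29e-08). With limma-trend over 32 mice the changes of Skint4 were -1.92 (adjusted p = 0.429) and -1.95 (adjusted p = 0.424), not called.

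Skint5 and Skint6, the far end of the cluster on the minus strand, were lower after UV in both genotypes. Skint5 had 37.6 to 167 cpm in WT controls (median 62.5) and 2.33 to 5.89 cpm after UV (median 3.42), and 44.2 to 145 cpm (median 70.8) and 1.38 to 15.6 cpm (median 3.62) in KO mice. It fell 19.9-fold in WT (log2 change -4.31, SE 0.4, adjusted p = 2.17e-10) and 16.8-fold in KO mice (-4.07, SE 0.4, adjusted p = 5.93e-10). Skint6 had 17.6 to 184 cpm in WT controls (median 56) and 1.17 to 8.17 cpm after UV (median 4.12), and 16.5 to 118 cpm (median 71.7) and 0.885 to 19.1 cpm (median 4.61) in KO mice. The highest KO UV mouse, 58M, lay above the lowest KO control, 62F, for Skint6, while the WT mice did not overlap. Its log2 change was -4.18 in WT (SE 0.63, adjusted p = 1.15e-06) and -3.42 in KO mice (SE 0.61, adjusted p = 1.41e-05).

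Skint2 and Skint10 had the smallest changes among the members read in all mice. For Skint2, WT controls had 15.7 to 63.4 cpm (median 36.3) and WT UV mice 4.85 to 12.1 cpm (median 9.15), and KO mice 15.1 to 56.7 cpm (median 36.9) and 0.918 to 9.98 cpm (median 6.6). Skint2 fell 3.93-fold in WT (log2 change -1.98, SE 0.32, adjusted p = 3.1e-06) and 6.4-fold in KO mice (-2.68, SE 0.33, adjusted p = 3.58e-08). For Skint10, WT controls had 57.9 to 134 cpm (median 73.2) and WT UV mice 5.05 to 27.7 cpm (median 11.9), and KO mice 40.3 to 164 cpm (median 95.9) and 6.05 to 56 cpm (median 9.79). The KO UV mouse 58M, at 56 cpm, lay above the lowest KO control, and the second highest KO UV mouse had 20.1 cpm. Skint10 fell 6.55-fold in WT (log2 change -2.71, SE 0.32, adjusted p = 2.14e-08) and 6.61-fold in KO mice (-2.73, SE 0.32, adjusted p = 2.13e-08).

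Single libraries stood out in these ranges. The WT control 54M had the highest level of 9 members among WT controls, all but Skint2, and 71F the second highest of 7. Among KO UV mice, 58M had the highest level of 8 members, all but Skint1 and Skint3, and it also had the largest share of reads aligned at several places, 38.5%, where the other 31 mice had 31.1% to 37.1%. Without 58M, the change in KO mice was -3.9 for Skint6 and -7.27 for Skint7. Without the KO UV mouse 74F, that of Skint9 was -4.78 in place of -3.97, still called. Without the WT control 54M, the change in WT mice was -0.22 for Skint3, -3.37 for Skint4 (adjusted p = 0.0254) and -3.48 for Skint9 (adjusted p = 0.0264), in place of -1.18, -4.26 and -4.41. Every member called in a genotype stayed called with any 1 mouse left out.

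The make-up of the family's reads shifted with UV. In the 22 mice with reads on all members, Skint3 held a median of 21.8% of the Skint reads in WT controls (20.4% to 29%) and of 65.2% in WT UV mice (55.7% to 68.8%). In KO mice it held 25.4% (21.5% to 32.6%) and 63.3% (37.3% to 72.6%). Skint9 went from 15.2% to 4.53% in WT and from 16.1% to 5.48% in KO mice. The share of Skint7 went from 8.96% to 0.14% in WT and from 4.87% to 0.193% in KO mice. Per kilobase of exon, the median level in WT controls with reads was highest for Skint9, at 60.1 cpm per kb (51.5 to 228), followed by Skint3 at 33.3 (28.8 to 116), and lowest for Skint8 at 4.5 (3.41 to 5.67). The 7 members between them had overlapping levels per kilobase, with medians of 9.04 to 18.9. After UV, Skint3 was highest per kilobase in WT mice, at 20.3 cpm per kb (15.8 to 34), above all other members in every mouse, and Skint7 was lowest at 0.0455 (0.0273 to 0.105).

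Ratios of reads between neighbours within a mouse do not depend on depth or on the scaling of libraries. They were chosen after the values had been seen and are given without a test, as log2 of the ratio with 0.5 added to each count. Skint3 to Skint9 was 0.61 ± 0.2 (SD, n = 5) in WT controls and 3.9 ± 0.43 (SD, n = 6) in WT UV mice, and 0.66 ± 0.24 (SD, n = 5) and 3.52 ± 0.68 (SD, n = 6) in KO mice. Skint3 to Skint4 was 1.75 ± 0.11 and 4.91 ± 0.33 in WT and 1.95 ± 0.09 and 4.97 ± 0.44 in KO mice. Controls and UV-exposed mice did not overlap in either ratio. By contrast, Skint9 to Skint4 was 1.14 ± 0.2 without UV and 1.01 ± 0.66 after it in WT, and 1.29 ± 0.27 and 1.45 ± 0.34 in KO mice, so Skint9 and Skint4 kept their ratio within the spread between mice.

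Skint7 to Skint8 was 1.26 ± 0.64 (SD, n = 8) in WT controls and -2.74 ± 0.96 (SD, n = 8) after UV, and 1.03 ± 0.55 and -2.06 ± 1.03 in KO mice. Skint7 to Skint1 was -0.03 ± 0.31 and -4.42 ± 1.57 in WT, and -0.27 ± 0.39 and -3.94 ± 1.49 in KO mice. Each of these ranges was free of overlap between controls and UV-exposed mice. Skint5 to Skint6, the pair with the most alike promoter windows, was 0.35 ± 0.7 and 0.06 ± 0.77 in WT and 0.51 ± 0.69 and -0.14 ± 0.87 in KO mice, with ranges that overlapped.

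**Figure D4:**
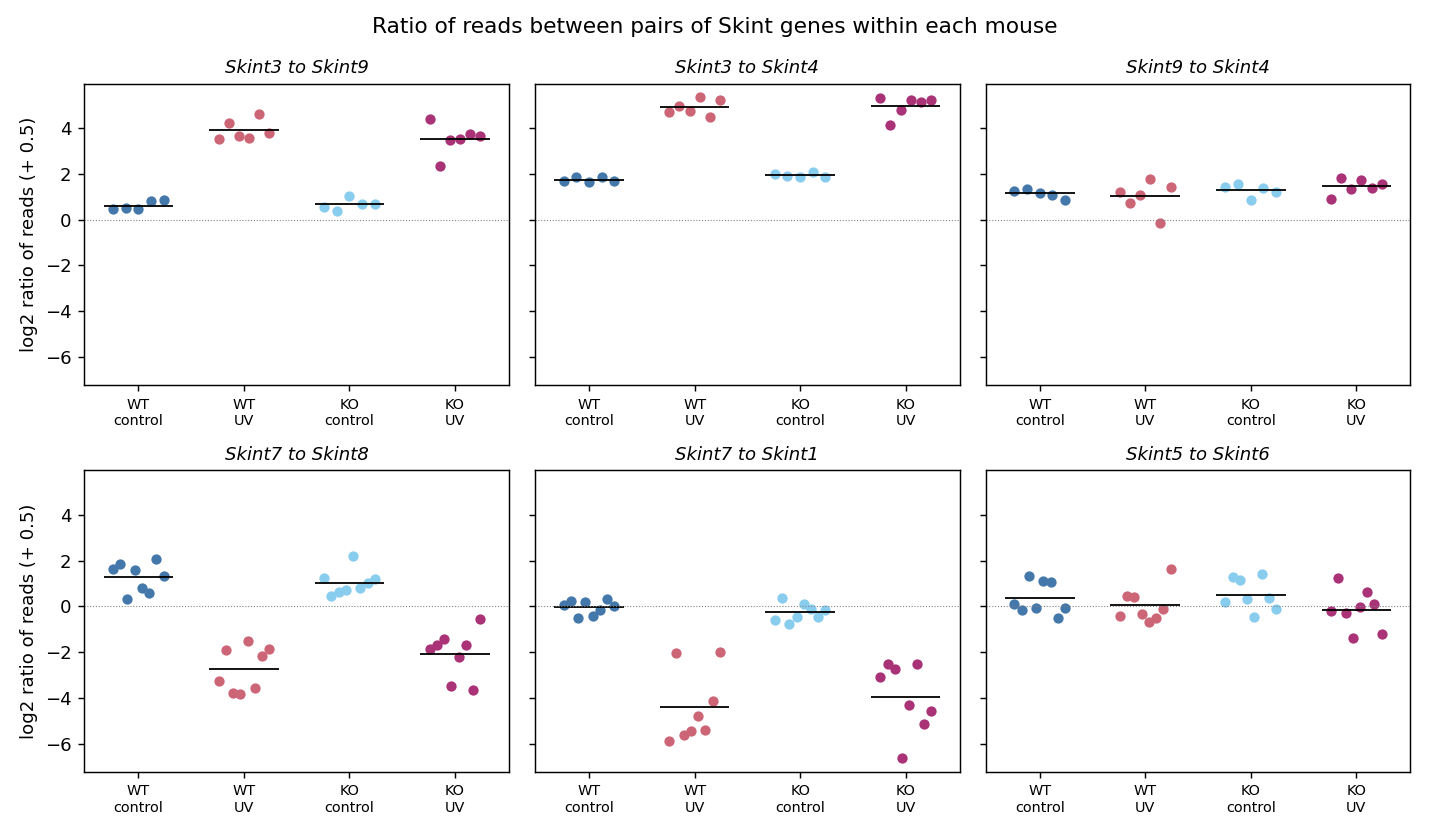
Log2 ratio of reads between pairs of Skint genes within each mouse, by condition. Points are mice (22 for the pairs with Skint3, Skint4 or Skint9, 32 for the others) and lines are means; the ratios of Skint3 to Skint9 and to Skint4 lie higher and those of Skint7 to Skint8 and to Skint1 lower after UV in both genotypes, while Skint9 to Skint4 and Skint5 to Skint6 overlap.

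Genotype made no called difference to any member. Without UV, 0 of 10 members differed between KO and WT mice, where 0.206% of all genes were called in either direction, and 0 members had an unadjusted p under 0.05. After UV, 0 of 10 were called beside 3.31% of all genes, and 1 had an unadjusted p under 0.05. That member was Skint2, with medians of 6.6 cpm in KO and 9.15 cpm in WT mice. Its log2 difference was -0.67 by edgeR (SE 0.31, adjusted p = 0.23). The interaction of genotype and UV called 0 of 10 members beside 0.765% of all genes, and 0 members had an unadjusted p under 0.05.

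The intervals say approximately how large a difference was compatible with the data. For the change after UV, KO minus WT, the estimate ± 1.96 SE ran from -1.11 to 0.38 for Skint1, from -1.15 to 0.25 for Skint8, from -0.86 to 0.83 for Skint10 and from -0.49 to 1.72 for Skint7, on the log2 scale. Skint2 and Skint6 had the extreme estimates, -0.7 (-1.56 to 0.15) and 0.76 (-0.81 to 2.32). For Skint3, Skint4 and Skint9 the intervals over 32 mice were wide, -3.76 to 3.88, -3.51 to 3.58 and -3.06 to 3.95. Over the 22 mice they narrowed to -0.8 to 1.04, -0.86 to 1.12 and -0.59 to 1.65. In that fit 0 of 10 members were called in the interaction, beside 0.114% of genes, and 1 member, Skint7, had an unadjusted p under 0.05 (estimate 1.32, SE 0.63, edgeR's adjusted p = 0.332). After UV, the same fit put Skint2 lower in KO mice by 0.98 (SE 0.29, adjusted p = 0.157) and Skint1 by 0.53 (SE 0.2, adjusted p = 0.242). Neither was called by edgeR, and both had an unadjusted p under 0.05. The number of all genes at that level is not given for this fit. In the 22 mice 0 of 10 members were called between genotypes without UV (0.167% of genes) and 0 after it (0.200%). KO minus WT was then -0.2 for Skint3, -0.33 for Skint4 and -0.29 for Skint9 without UV, and -0.08, -0.2 and 0.24 after it, beside -0.22, -0.34 and -0.3 and -0.16, -0.31 and 0.14 over 32 mice. The 6 fibroblast markers were all called higher in KO than in WT mice after UV, with the highest sum in the KO UV mouse 54F. Their part in the Skint comparison was not tested, and the levels of 54F lay within the range of the other KO UV mice for the 7 members read in all mice.

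**Figure D5:**
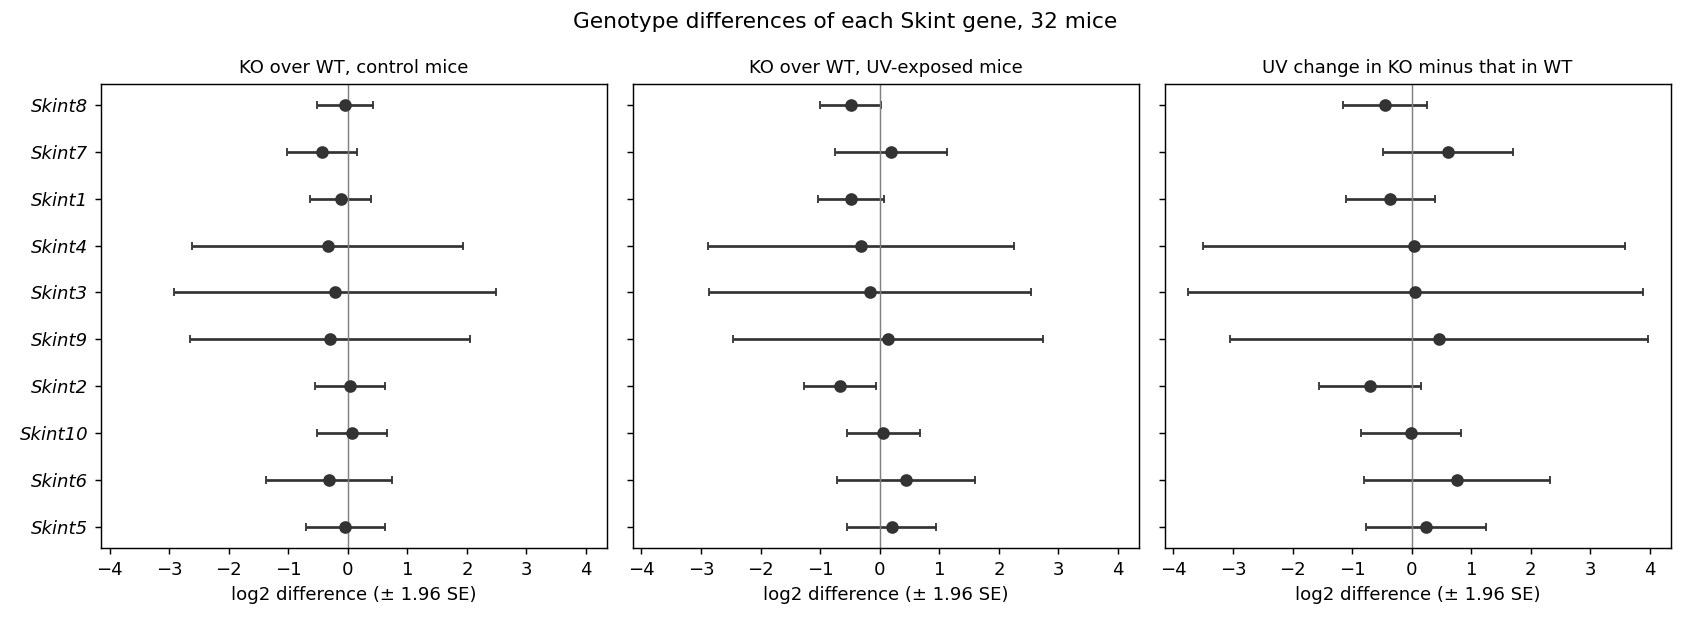
Log2 differences between genotypes for each Skint gene over 32 mice, with bars of 1.96 standard errors, for control mice (left), UV-exposed mice (middle) and the change after UV, KO minus WT (right). 9 of 10 intervals span 0 after UV, with Skint2 (-1.28 to -0.05) as the exception, and all 10 span 0 in the other panels.

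Taken within each sex, the fall after UV was called for 7 of 10 members in WT males (31.1% of all genes were called lower), 9 in WT females (31.1%), 7 in KO males (30.9%) and 8 in KO females (26.7%). The members that missed the call were Skint3 in all 4 comparisons, Skint4 and Skint9 in the males of both genotypes, and Skint9 in KO females. The 22 mice, chosen by their own Skint counts, left 2 to 4 per group. All 10 members were then called in WT males (26.5% of genes), 10 in WT females (29.0%), 10 in KO males (29.9%) and 9 in KO females (23.4%). In KO females Skint3 missed the call (-1.28, SE 0.55, edgeR's adjusted p = 0.0614). In that fit Skint4 changed by -4.72 to -4.15 and Skint9 by -4.81 to -3.99 across the 4 comparisons. The 7 other members were called lower in both sexes of both genotypes, with Skint7 at -6.92 in WT males, -7.65 in WT females, -6.59 in KO males and -6.75 in KO females. The interaction of sex and UV called 0 of 10 members in WT and 0 in KO mice, as it called 0 of 15546 genes in either (0% and 0%). At an unadjusted p under 0.05 it held 419 genes in WT and 1482 in KO mice, and 0 members in both.

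Without UV, 0 of 10 members differed between females and males, beside 6.86% of all genes. After UV, 0 of 10 were called beside 3.03% of all genes. Skint10 came closest. It was lower in females by 0.71 on the log2 scale without UV (SE 0.3, adjusted p = 0.142) and by 1.06 after UV (SE 0.31, adjusted p = 0.0579), with an unadjusted p under 0.05 in both. The 8 UV-exposed males had 9.56 to 56 cpm of Skint10 and the 8 females 5.05 to 16.1 cpm, ranges that overlapped. Over the 22 mice its difference, females minus males, was -0.86 without UV (SE 0.41, edgeR's adjusted p = 0.325) and -0.93 after it (SE 0.4, adjusted p = 0.383). In that fit Skint2 came closest without UV, at -0.92 (SE 0.29, adjusted p = 0.185).

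Across mice, single members moved together or against each other. Over the deviations of log2 cpm from the 8 group means (32 mice), Pearson's r was 0.98 for Skint3 with Skint4 and for Skint3 with Skint9 and 1 for Skint4 with Skint9, values set by the mice at 0. Skint6 followed these 3 at 0.78 to 0.79, and Skint2 ran against them at -0.62 to -0.61. Among members read in all mice, r was 0.78 for Skint5 with Skint6, 0.77 for Skint5 with Skint7, 0.74 for Skint2 with Skint8 and 0.73 for Skint5 with Skint10. Points share a library and its depth, and r is given as a description.

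The genes outside the family with the pattern most like its mean log2 cpm over the 32 mice were 8030443G20Rik (r = 0.9), Gm12736 (0.89), Skint11 (0.88), Gm20075 (0.87) and Gm12436 (0.86), all on chromosome 4 but Gm20075, which is on chromosome 13. Over deviations from the group means, they were Gm12818 (0.92), 8030443G20Rik (0.87), Gm12736 (0.86), Gm12819 (0.84) and Gm37819 (0.84), the last on chromosome 3. Gm12818 lies within Skint6 on its strand. It had at most 1 read in each of the 10 mice without Skint3 reads. The family mean holds Skint3, Skint4 and Skint9, so their 0 reads in those mice weigh on both lists, most on the second. In the second list, log2 changes after UV in WT mice ran from -7.3 (8030443G20Rik) to 0.38 (Gm12818, edgeR's adjusted p = 0.739). A place in these lists is thus no measure of a shared change after UV. Skint11 had 17.8 to 69.1 cpm in WT controls and 0.483 to 9.16 cpm in WT UV mice, and its log2 change was -2.95 in WT (SE 0.55, adjusted p = 2.36e-05) and -3.05 in KO mice (SE 0.55, adjusted p = 1.78e-05).

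Of the 11 other relatives of the butyrophilin type listed, Skint11 among them, 3 were tested. Skint11 was called lower, and Ermap, an erythroid membrane protein, had a log2 change of -0.76 in WT (adjusted p = 0.0883). Btnl2, a regulator of T cells, was called higher on few reads, with 0 reads in all 8 WT controls and 1 to 12 reads in each WT UV mouse. The signals that keratinocytes send to epidermal T cells changed in both directions, with 4 of 7 tested genes lower and 2 higher in WT, and 4 lower and 3 higher in KO mice. Il15, a survival factor of these T cells, fell by 4.11 on the log2 scale in WT mice (SE 0.22, adjusted p = 3.12e-15), and Ccl27a, a skin chemokine, by 1.85 (SE 0.38, adjusted p = 8.43e-05). Plxnb2, a receptor for CD100, rose by 0.59 (SE 0.07, adjusted p = 1.89e-08) and Ulbp1, a ligand of NKG2D, by 0.86 (SE 0.32, adjusted p = 0.0193).

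Of 15 markers of dendritic epidermal T cells tested, 12 were called lower and 1 higher in WT mice, and 11 lower and 2 higher in KO mice. In WT mice, the T cell receptor genes Tcrg-V5 (-3.03) and Tcrg-C1 (-2.45) fell most, and Fcer1g (0.31, not called) and Il2rb (0.76, called) stood at the other end. The 15 markers summed to 33.3 to 191 cpm in WT controls (median 128) and 34.8 to 104 cpm after UV (median 51.1). In KO mice the sums were 76.5 to 178 cpm (median 132) and 51.2 to 115 cpm (median 88.6). The overlap in WT came from the control 43M, at 33.3 cpm, and the UV mouse 77F, at 104 cpm. All 5 Langerhans cell markers were called lower in both genotypes, from Cd207 (-1.7) and H2-Ab1 (-1.65) to Cd74 (-1.36) and Epcam (-0.58) in WT. Skint genes are keratinocyte genes, and the part of these cells in the Skint result was not tested.

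Among 10 suprabasal keratinocyte markers, 7 were called lower and 2 higher in WT mice, and 8 lower and 1 higher in KO mice. Flg2 (-4.64) and Krt1 (-2.41) fell most in WT, and Dsc1 (0.67) and Tgm3 (0.76) rose. The median log2 change of these markers was -0.93 in WT and -1.29 in KO mice, beside -3.74 and -3.59 for the Skint genes. Their summed level was 71800 to 85400 cpm in WT controls and 17400 to 31900 cpm after UV, and 66900 to 113000 cpm and 11400 to 37500 cpm in KO mice. Basal markers were mixed, with 3 of 7 higher and 2 lower in WT and 5 higher and 1 lower in KO mice, from Krt15 (-6.08) and Krt5 (-0.5) to Krt14 (1.7) and Itgb4 (1.73) in WT. Hair follicle and sebaceous markers had 2 of 6 higher and 2 lower in WT and 3 higher and 1 lower in KO mice, from Lhx2 (-3.13) and Scd1 (-1.37) to Sox9 (2.39) and Krt17 (3.3).

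Of 6 fibroblast markers, 3 were called lower in WT and 0 in KO mice, where 6 missed the call, with Col1a2 (-3.05) and Col1a1 (-3.03) lowest and Dcn (-1.67) and Pdgfra (-0.94) highest in WT. The 4 skeletal muscle markers were not called in either genotype, between Mylpf (0.11) and Myh4 (0.39) in WT, with Acta1 (0.26) and Ckm (0.29) between them. These fitted changes did not follow the medians. The markers summed to a median of 365 cpm in WT controls (7.92 to 1200) and 13.6 cpm after UV (3.95 to 1930). Of 2 adipocyte markers tested, Cidec (1.92) was called higher in WT and Plin4 (0.71) was not, and both were called higher in KO mice. All 7 p53 targets were called higher in both genotypes, from Phlda3 (1.02) and Mdm2 (1.87) to Cdkn1a (2.24) and Ccng1 (3.05) in WT.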

How the data were processed

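Epidermal RNA of 32 mice was sequenced as stranded mRNA libraries with single reads of 100 cycles. The authors trimmed reads with cutadapt (version 1.8), removed ribosomal RNA, aligned with STAR (version 2.5.3a) and counted with HTSeq (version 0.9.1), and the submitters' processing notes name the build GRCm38. The deposited tables hold whole-number counts per gene and mouse, not normalized. Whether strand was used in the counting is not given in the sources used here. Summary lines without a gene stayed out of library sizes, with 6.8% to 9.75% of reads on no gene and 31.1% to 38.5% aligned at several places.

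Libraries were scaled by TMM (factors 0.864 to 1.089), and cpm are on that scale. edgeR's quasi-likelihood test (edgeR version 4.0.16, R version 4.3.3) was fitted to 8 group means over 15546 genes that reached 1 cpm in any mouse, and p-values were adjusted over all of them by the Benjamini-Hochberg method. Log2 cpm had a prior count of 1. A gene was called at an adjusted p under 0.05. limma-trend (limma version 3.58.1), DESeq2 (version 1.42.0), RLE size factors, other filters, 4 groups without sex, each genotype alone, and leaving out each mouse in turn were alternatives, and the scripts were tested on simulated data. The fit of 22 mice was added after seeing the data. Symbols came from GENCODE M21, which held 55141 of 55401 identifiers, and promoter windows from RefSeq.

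All 10 members are named, together with, from each list, the 2 lowest and the 2 highest log2 changes in WT mice, and the 5 genes most like the family mean by each measure. Lists covered butyrophilin relatives, keratinocyte signals to epidermal T cells, and markers of epidermal T cells, keratinocyte layers, hair follicle, Langerhans cells, fibroblasts, muscle, adipocytes and p53 targets. Members and lists were chosen with earlier results of these data known. No duplicated library was found, as counts of all 48 pairs of mice within a group differed beyond sampling noise (chi-square per degree of freedom 21.3 to 147). The limits given for 0 reads cover counting error only, while intervals of estimate ± 1.96 SE come from the edgeR fit and include the spread between mice. Each SE was worked back from edgeR's test, as the size of the log2 change over the square root of the F statistic. It is unsteady for changes near 0. For the interaction of Skint4 it was 1.81 at 0.04 in the fit reported and 1.16 at 0 with RLE.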

Additional observations from a re-analysis of the deposited data

Results flagged for a closer look

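Within single groups of 4 mice, 7 of 80 sets of Skint levels held a mouse far from the other 3 by Dixon's criterion, which sets the gap to the nearest mouse against the range. For independent, normally distributed values chance gives about 1 in 20. These sets reuse the same mice over genes that vary together, so an excess over chance cannot be judged. Skint3 and Skint4 were at 0 cpm in the KO control male 44M, against 196 to 223 cpm and 49.2 to 59.2 cpm in the other 3. The same mouse had 27.4 cpm of Skint7, against 37.5 to 39.3 cpm. The WT control male 54M had 167 cpm of Skint5 and 184 cpm of Skint6, against 53.8 to 65.6 cpm and 24.5 to 49.6 cpm. The WT UV female 77F had 0.621 cpm of Skint7, against 0.109 to 0.193 cpm. The KO control male 52M had 164 cpm of Skint10, against 94.4 to 105 cpm.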

How the results depend on the processing

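The number of Skint genes called lower after UV was 9 in WT and 9 in KO mice with any 1 mouse left out. Within sexes it ranged from 7 to 8 in WT males, 7 to 9 in WT females, 7 to 7 in KO males and 7 to 9 in KO females. After UV, 1 member, Skint10, was called between sexes with RLE size factors, with DESeq2 and with another filter (filterByExpr), and in 0 to 1 with a mouse left out, beside 0 in the fit reported. The other genotype and sex counts stayed at 0 with any 1 mouse left out. With limma-trend, the log2 change of Skint4 after UV was -1.92 in WT and -1.95 in KO mice and that of Skint9 was -1.88 and -1.67, all no longer called. Of 160 log2 changes after UV under other settings, 152 kept direction and call, and of 640 with 1 mouse left out all 640 did. For each change, 16 of the mice left out in turn were of the other genotype. They lay outside the groups compared, so leaving them out could change little. The cause of the differences was not tested.

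Reversed directions concerned differences that were not called. With limma-trend, Skint3 was higher after UV, by 0.66 in WT and 0.55 in KO mice. For the interaction of genotype and UV, limma-trend gave -0.11 for Skint3 and -0.11 for Skint5, and Skint4, at 0.04, came to 0 with RLE, -0.03 with limma-trend, -0.01 with filterByExpr and -0.02 without a filter. Skint10 came to 0.19 with 4 groups and to 0.42 over 22 mice. Without UV, limma-trend gave genotype differences of 0.05 for Skint3, 0.05 for Skint5 and 0.02 for Skint9, and the 22 mice gave -0.16 for Skint2 and 0 for Skint10. After UV, limma-trend gave -0.05 for Skint5.

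With 1 mouse left out, the interaction ranged from -0.9 to 0.55 for Skint3, -0.85 to 0.52 for Skint4, -0.22 to 0.38 for Skint5, -0.48 to 0.83 for Skint9 and -0.45 to 0.18 for Skint10. Genotype differences without UV ranged from -0.19 to 0.04 for Skint1, -0.11 to 0.24 for Skint2, -0.72 to 0.74 for Skint3, -0.84 to 0.55 for Skint4, -0.18 to 0.22 for Skint5, -0.48 to 0.21 for Skint6, -0.19 to 0.05 for Skint8, -0.7 to 0.63 for Skint9 and -0.06 to 0.18 for Skint10. After UV they ranged from -0.69 to 0.04 for Skint3, -0.26 to 0.35 for Skint5, -0.03 to 0.72 for Skint6, -0.41 to 0.59 for Skint7, -0.67 to 0.41 for Skint9 and -0.38 to 0.27 for Skint10.

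No paired analysis was made, as each mouse gave 1 library and the labels name no pairs of mice. Depth limits Skint7 after UV, with 2 to 25 reads per mouse, and the limit of 3 reads in the mice without Skint3 reads.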
